A study of Mus musculus with 6 samples.

Results

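The genes described here are Olfml2b, Lipg, Lrg1, Prom1, Mapk13, Ankrd22 and Akr1c18, 7 protein-coding genes listed as lying outside the neutrophil granule genes, whose read counts were far higher in the libraries labelled DOT1L High than in those labelled NT. They were selected on that difference in these same libraries, so their High and NT values are given as a description, with no test. They are 7 of the 49585 gene IDs in the deposited table and 7 of the 15812 genes that passed the filter on low counts. Levels are given as CPM (counts scaled to library size), and Ankrd22, with 0 counts in NT, passed the filter through its other libraries.

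RNA-seq was carried out on 6 libraries of mouse acute myeloid leukemia cells driven by the KMT2A-MLLT3 fusion, which joins the N-terminal part of the histone methyltransferase KMT2A to the elongation-complex partner MLLT3. Marrow of sick mice was transduced with DOT1L, the histone H3 lysine 79 methyltransferase that this fusion recruits, and cells with high or low expression were sorted and harvested 3 days later. Each of the leukemias K3174 and K3117 gave 1 library labelled NT, 1 labelled DOT1L Low and 1 labelled DOT1L High, and the medium of all 6 held the cytokines interleukin 3 and interleukin 6 with stem cell factor. The labels do not say what NT stands for, whether K3174 and K3117 are separate mice or how many mice each represents, so the p-values below measure the spread between these samples only.

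The libraries held 22908445 to 33265848 counts. The endogenous Dot1l gene did not separate the labels: it had 136 CPM in K3174 High and 150 CPM in K3117 High, against 158 CPM in K3174 NT and 128 CPM in K3117 NT (adjusted p = 1.00, edgeR's quasi-likelihood test). The labels do not give the species or form of the DOT1L construct, so a label's dose could not be read from this gene and High and Low below mean libraries labelled so. All 8 markers of leukemic myeloid progenitors (among them Ptprc, Spi1, Hoxa9 and Meis1) passed the filter on low counts, and their summed level lay between 1165 and 3420 CPM. Without Mpo, the myeloperoxidase gene, which ran between 30.5 CPM in K3117 NT and 2118 CPM in K3174 High, the sum lay between 1081 and 1302 CPM. In High against NT 4 of the 8 rose and 2 fell. On the log2 scale Mpo rose by 3.28 (adjusted p = 0.0010, edgeR), Itgam by 1.73 (0.0012), Spi1 by 0.77 (0.00082) and Kit by 0.68 (0.0014). Hoxa9 fell by 0.75 (0.00076) and Meis1 by 1.18 (4.7e-05). Among all genes tested, 10.0% rose and 7.32% fell.

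The 7 genes belong to no single pathway. Olfml2b, Lipg and Lrg1 encode secreted proteins: an olfactomedin-domain matrix protein, the endothelial lipase that cuts phospholipids of high-density lipoprotein, and the leucine-rich alpha-2-glycoprotein that modifies TGF-beta signalling through endoglin. Prom1 encodes CD133, a cholesterol-binding glycoprotein of membrane protrusions used as a surface marker of stem and progenitor cells, Mapk13 encodes the p38 delta kinase, Ankrd22 an ankyrin-repeat protein, and Akr1c18 the 20-alpha-hydroxysteroid dehydrogenase that inactivates progesterone. In human neutrophils LRG1 is stored in granules, so for Lrg1 the description as a gene outside the granule set rests on how the 7 were listed.

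All 7 genes were higher in both High libraries than in either NT library. Olfml2b, Lrg1, Prom1 and Mapk13 were also higher in both Low libraries than in either NT library. How many of all genes are separated in this way was not counted, so this is description only. For Lipg and Akr1c18 the Low and NT values overlapped between the leukemias, and Ankrd22 in K3117 Low had 3 counts, the number taken as the floor for a count of 0. Across all genes tested, 10.0% passed the threshold (Benjamini-Hochberg adjusted p under 0.05) as higher and 7.32% as lower in High against NT, and 2.05% as higher and 1.29% as lower in Low against NT. Since the High and NT values chose the genes, nothing is read from the separation of High from NT, and that of Low from NT shares the NT libraries with it. In these bulk samples, more cells that express a gene and more RNA per cell cannot be told apart. The plot of CPM by label places every library of each gene on a common log axis.

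**Figure D1:**
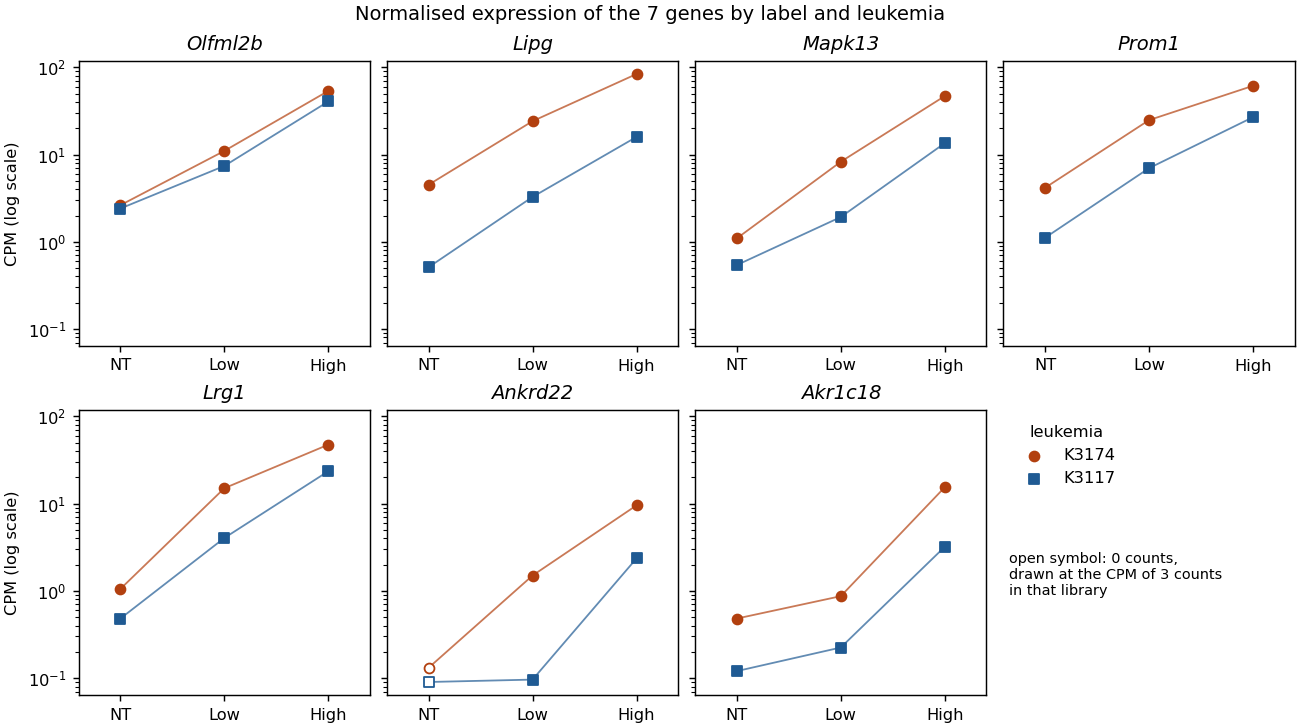
CPM (log scale) of the 7 genes in the libraries labelled NT, Low and High, with circles for K3174 and squares for K3117; open symbols mark 0 counts, drawn at the CPM of 3 counts. Every gene is highest in High in both leukemias, and Olfml2b has nearly equal NT values in K3174 (2.63 CPM) and K3117 (2.41 CPM).

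Lipg (ENSMUSG00000053846.4; GRCm38, chromosome 18, 74939322 to 74961263, minus strand; 10 exon blocks of 4715 bp in all) had 4.51 CPM (NT), 24.1 CPM (Low) and 83.8 CPM (High) in K3174. In K3117 it had 0.511 CPM (NT), 3.27 CPM (Low) and 15.9 CPM (High). K3174 was above K3117 at every label, so far that K3174 Low exceeded K3117 High and K3174 NT exceeded K3117 Low. The High to NT fold was 18.6 in K3174 (95% exact interval 15.3 to 22.9) and 31.1 in K3117 (19.2 to 54.1). Here and below such intervals cover counting error only, and each leukemia has 1 library a label. Since High and NT values chose the genes, the intervals are description and no test. The Low to NT fold was 5.35 in K3174 and 6.39 in K3117. Over both leukemias Lipg averaged 49.9 ± 48.0 CPM in High and 2.51 ± 2.83 CPM in NT (SD, n = 2 each), and the High mean was about as large as its SD.

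Olfml2b (ENSMUSG00000038463.8; GRCm38, chromosome 1, 170644532 to 170682789, plus strand; 8 exon blocks, 3095 bp) had 2.63 CPM (NT), 11.0 CPM (Low) and 53.6 CPM (High) in K3174. In K3117 the values were 2.41 CPM (NT), 7.40 CPM (Low) and 40.6 CPM (High). The 3 labels did not overlap, and the leukemias were closer to each other at NT than for the other genes with counts there. Its High to NT fold was 20.4 in K3174 (15.8 to 26.9) and 16.9 in K3117 (13.4 to 21.5). Olfml2b averaged 47.1 ± 9.21 CPM in High and 2.52 ± 0.156 CPM in NT (SD, n = 2 each).

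Lrg1 (ENSMUSG00000037095.7; GRCm38, chromosome 17, 56119678 to 56122001, minus strand; 2 exon blocks, 1408 bp) had 1.05 CPM (NT), 15.0 CPM (Low) and 47.4 CPM (High) in K3174. In K3117 it had 0.481 CPM (NT), 4.04 CPM (Low) and 23.5 CPM (High). The labels did not overlap, and Low lay nearer to High than to NT on the log scale in both leukemias. The High to NT fold was 45.1 in K3174 (30.2 to 70.7) and 48.9 in K3117 (29.8 to 86.2). The Low to NT fold of 14.3 in K3174 and 8.39 in K3117 was the largest among the 6 genes for which that fold can be formed in both leukemias. Per kilobase of exon it had the highest High level of the 7 in both leukemias, with 33.7 CPM per kb in K3174 and 16.7 CPM per kb in K3117.

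Prom1 (ENSMUSG00000029086.15; GRCm38, chromosome 5, 43993620 to 44102032, minus strand; 36 exon blocks, 7175 bp) had 4.16 CPM (NT), 24.8 CPM (Low) and 61.4 CPM (High) in K3174. In K3117 the values were 1.11 CPM (NT), 6.98 CPM (Low) and 26.8 CPM (High). K3174 Low nearly reached K3117 High, while both NT libraries lay below every other. Its High to NT fold was 14.8 in K3174 (12.0 to 18.3) and 24.1 in K3117 (17.3 to 34.6), and its Low to NT fold was 5.97 in K3174 and 6.28 in K3117. Of its 75-base stretches, 3.65% also occur in another annotated transcript, mainly in the antisense gene Gm16401, which had 0 counts in all 6 libraries.

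Mapk13 (ENSMUSG00000004864.12; GRCm38, chromosome 17, 28769297 to 28780233, plus strand; 11 exon blocks, 3150 bp) had 1.09 CPM (NT), 8.28 CPM (Low) and 46.8 CPM (High) in K3174. In K3117 it had 0.541 CPM (NT), 1.92 CPM (Low) and 13.5 CPM (High). The labels did not overlap. The High to NT fold was 42.8 in K3174 (28.9 to 66.3) and 25.0 in K3117 (15.5 to 42.7), and the Low to NT fold was 7.56 in K3174 (5.02 to 11.9) and 3.55 in K3117 (2.07 to 6.39).

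Ankrd22 (ENSMUSG00000024774.15; GRCm38, chromosome 19, 34121469 to 34166053, minus strand; 8 exon blocks, 3052 bp) had 0 counts in both NT libraries, which allows up to 0.131 CPM in K3174 and 0.0902 CPM in K3117 (3 counts per library). In K3174 it had 50 counts (1.50 CPM) in Low and 284 counts (9.56 CPM) in High. In K3117 it had 3 counts (0.0961 CPM) in Low and 53 counts (2.36 CPM) in High. It was therefore first seen above the floor in Low in K3174 and in High in K3117. Set against the floor of 3 counts, High was at least 72.8-fold higher than NT in K3174 and at least 26.1-fold higher in K3117. Of its 75-base stretches, 40.8% also occur in another annotated transcript, mainly because 1219 bp of its exons overlap those of Lipm on the opposite strand. Lipm had 1 count in all 6 libraries together, and without a stated strand setting reads of the overlap cannot be assigned to one of the pair.

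Akr1c18 (ENSMUSG00000021214.13; GRCm38, chromosome 13, 4132615 to 4150654, minus strand; 9 exon blocks, 1207 bp) had 0.482 CPM (NT), 0.870 CPM (Low) and 15.4 CPM (High) in K3174. In K3117 it had 0.120 CPM (NT), 0.224 CPM (Low) and 3.20 CPM (High), from 4, 7 and 72 counts. NT and Low overlapped across the leukemias, and High stood alone. The Low to NT fold was 1.81 in K3174 (0.876 to 4.01) and 1.86 in K3117 (0.474 to 8.69). Both intervals include 1, but they share the NT counts with the choice of genes, so this is no test. The High to Low fold was 17.7 in K3174 (12.2 to 26.8) and 14.3 in K3117 (6.58 to 36.8). Activity of this enzyme in mouse blood cells has long been used to follow the action of interleukin 3, which was in the medium of all groups.

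To show what the start regions of these genes hold, since the genes moved together with the label, the 250 bases before the annotated starts were read from RefSeq (GRCm38.p6). This was done for 6 of the 7 genes, with 2 starts for Prom1, and Lipg was not searched. Capitals mark matches to the motifs searched on both strands: TTGCNNAA for C/EBP factors, GAGGAAG for ETS factors or PU.1, TGTGGTT for RUNX, TGANTCA for AP-1, TTCNNNGAA for STAT and TGACAG for MEIS. Ankrd22 is shown because its window (chr19:34166042-34166291, minus strand) held both a C/EBP match, starting at base -124, and an AP-1 match at base -10. Prom1 is shown for the AP-1 match at base -88 (chr5:44101737-44101986, minus strand), and Mapk13 (chr17:28769067-28769316, plus strand) as a window of 76% G and C with no match.
Ankrd22: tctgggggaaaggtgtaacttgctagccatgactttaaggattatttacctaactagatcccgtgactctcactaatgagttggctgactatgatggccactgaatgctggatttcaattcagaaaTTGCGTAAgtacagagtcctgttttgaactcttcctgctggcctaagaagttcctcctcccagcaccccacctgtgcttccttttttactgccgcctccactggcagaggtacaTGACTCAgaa
Prom1: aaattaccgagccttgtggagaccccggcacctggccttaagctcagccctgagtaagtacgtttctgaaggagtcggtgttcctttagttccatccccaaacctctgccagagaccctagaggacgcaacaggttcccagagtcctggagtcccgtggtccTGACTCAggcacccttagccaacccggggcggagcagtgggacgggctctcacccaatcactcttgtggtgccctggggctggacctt
Mapk13: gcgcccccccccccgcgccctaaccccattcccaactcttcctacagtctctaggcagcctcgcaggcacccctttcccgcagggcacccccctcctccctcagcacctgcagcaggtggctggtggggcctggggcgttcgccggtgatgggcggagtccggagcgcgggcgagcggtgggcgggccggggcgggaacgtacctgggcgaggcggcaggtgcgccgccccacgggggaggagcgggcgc

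No motif was shared by more than 2 of the 6 genes searched. With the window widened to 300 bases (50 past the start), a C/EBP match was in 1 of the 6 genes (Ankrd22) and in 10.8% of all 32851 mouse windows, and an AP-1 match was in 2 (Ankrd22 and Prom1) and in 7.81% of all windows. An ETS or PU.1 match was in 2 genes (Akr1c18 and the second Prom1 window) and in 13.6% of all windows, and a MEIS match was in 1 (Lrg1) and in 19.2%. RUNX and STAT matches, held by 5.27% and 8.30% of all windows, were in none of the 6. A match describes letters in a window and is not a bound site.

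Where Low stood between NT and High was not used to choose the genes, since the difference of Low from the midpoint of NT and High is close to orthogonal to High minus NT while all 6 libraries are in the fit. On the log2 CPM scale (prior count 2), Low lay 57.3% of the way from NT to High in K3174 and 52.7% in K3117 for Lipg, while Prom1 stood at 66.2% in K3174 and 57.2% in K3117. Lrg1 stood at 69.4% in K3174 and 53.5% in K3117, Mapk13 at 53.3% in K3174 and 38.1% in K3117, and Olfml2b at 47.2% in K3174 and 39.5% in K3117. Ankrd22 stood at 63.2% in K3174 and 24.5% in K3117, where Low held 3 counts, and Akr1c18 at 16.0% in K3174 and 15.4% in K3117. Apart from Akr1c18, the genes stood further along in K3174 than in K3117 with a prior count of 0.5, 2 or 5, a difference that was not tested. For Akr1c18 the order of the leukemias turned with that choice, with 16.8% in K3174 and 17.9% in K3117 at a prior count of 0.5, and 17.1% in K3174 and 19.0% in K3117 with none.

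**Figure D2:**
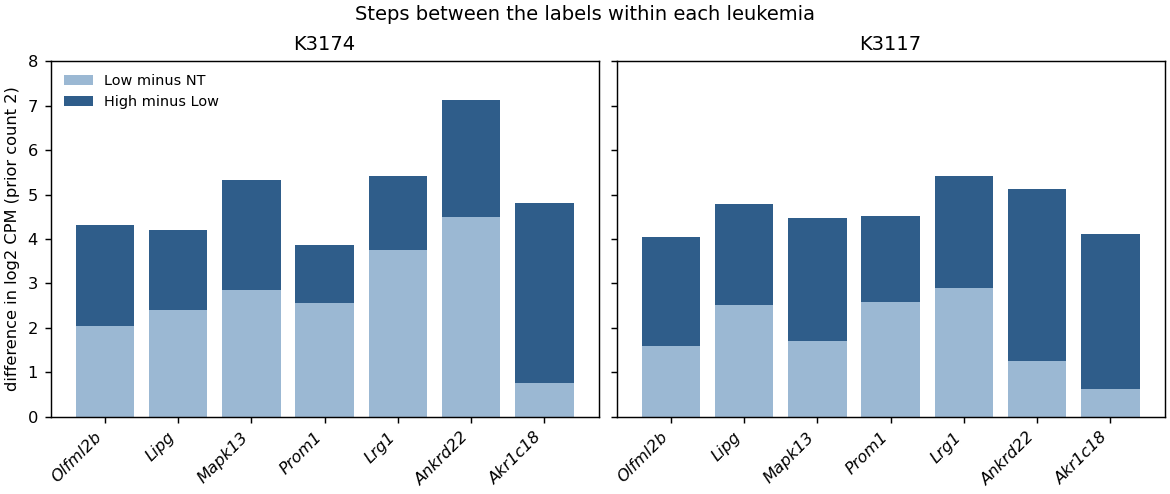
Stacked bars give the step from NT to Low (light) and from Low to High (dark) in log2 CPM with a prior count of 2, in K3174 (left) and K3117 (right). Most of the Akr1c18 bar is the step from Low to High, 4.04 in K3174 and 3.48 in K3117, while the step from NT to Low is the larger one for Lrg1, 3.75 in K3174 and 2.90 in K3117.

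The fit over both leukemias placed Akr1c18 below its midpoint by a log2 difference of -1.59 ± 0.33 (SE) and Lrg1 above its midpoint by 0.73 ± 0.21, but 0 of the 7 genes passed the threshold (edgeR's quasi-likelihood test over all 15812 genes, adjusted p = 0.085 for Akr1c18 and 0.31 for Lrg1). Among all genes, 0.00632% lay above and 0.348% below their midpoint by this test. Prom1 stood 0.49 ± 0.17 above its midpoint (adjusted p = 0.53), and Lipg (0.22 ± 0.17), Mapk13 (-0.07 ± 0.22) and Olfml2b (-0.26 ± 0.15) had an adjusted p of 1.00. Before adjustment 3 of the 6 genes with counts in every library had a p under 0.05: that of Akr1c18 was 0.00049, that of Lrg1 0.0050 and that of Prom1 0.014 in the same edgeR fit. Of all 15812 genes, 789 had an unadjusted p under 0.05 by this test. DESeq2 also called 0 of the 7, with an adjusted p of 0.066 for Akr1c18. The outcome depended on single libraries: without K3117 High the adjusted p was 0.0041 for Akr1c18, 0.0061 for Lrg1 and 0.046 for Prom1, and without K3117 NT it was 0.011 for Akr1c18 and 0.016 for Lrg1. With a High or NT library left out the difference draws in part on the values that chose the genes, so nothing is read from these passes. Without K3174 Low the adjusted p was 1.00 for both, with a difference of -1.40 for Akr1c18 and 0.24 for Lrg1. Ankrd22, at 0 in both NT libraries, had a fitted value of 2.05 ± 0.89 (adjusted p = 0.95, unadjusted 0.043) that depends on the prior count, and is not counted here.

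The level of 5 of the 6 genes with counts in every library differed between the leukemias, a difference the choice of genes did not use. With the labels as a covariate, all 5 were higher in K3174 than in K3117, where 3.05% of all genes were higher and 6.32% lower. Each leukemia entered this fit through its differently labelled libraries. The p-values therefore measure the spread between libraries and do not extend to other leukemias. Lipg differed most, by a log2 fold of 2.70 ± 0.16 (SE; adjusted p = 1.5e-06, edgeR's quasi-likelihood test). Akr1c18 followed with 2.16 ± 0.27 (0.00035) and Mapk13 with 1.79 ± 0.19 (0.00013). Prom1 was higher by 1.58 ± 0.16 (8.7e-05) and Lrg1 by 1.38 ± 0.20 (0.00085). Olfml2b had 0.40 ± 0.14 and did not pass (adjusted p = 0.11). Its log2 fold lay between 0.29 and 0.49 over the 12 alternative fits with a leukemia term. Ankrd22 had 2.46 ± 0.40 (0.0028); it is not counted, since with 0 counts in NT it could pass the filter on low counts through High, where it was chosen to be high. The order within a leukemia differed too: per kilobase of exon, Lipg was the second of the 7 in K3174 High with 17.8 CPM per kb and the fifth in K3117 High with 3.38 CPM per kb.

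**Figure D3:**
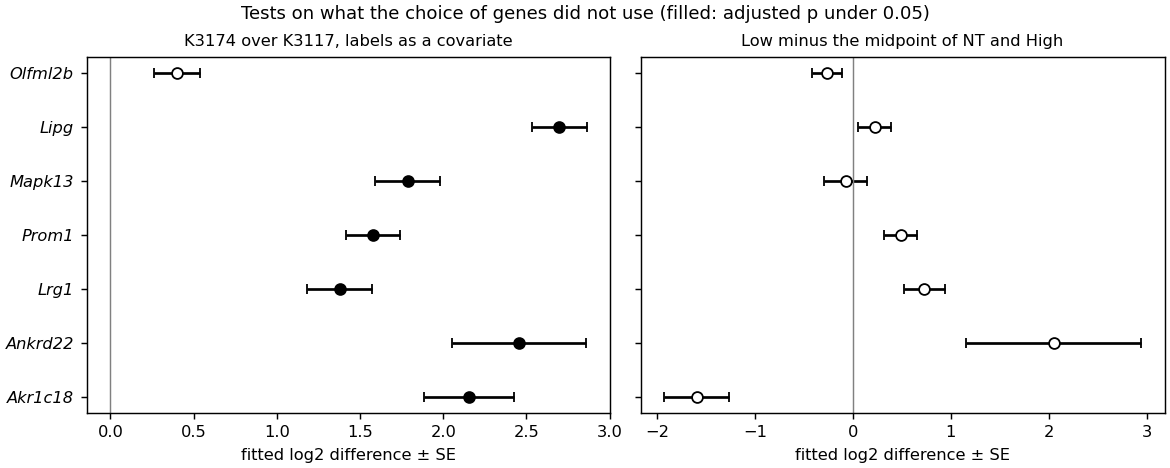
Fitted log2 difference ± SE of the 7 genes for K3174 over K3117 (left) and for Low against the midpoint of NT and High (right), from the fit over all 6 libraries. Filled points passed an adjusted p of 0.05: 6 genes on the left, with Olfml2b the exception at 0.40 and Ankrd22 (0 counts in NT) among them, and 0 on the right.

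Higher levels in K3174 were common among other genes with large rises. Of the 45 other genes with a fitted log2 fold of at least 4 in High against NT, a set chosen after its values were seen, 32 were higher in K3174 and 0 lower, with a median log2 difference of 2.18. Whether the rise itself differed between the leukemias was tested as the difference in slope per label step, with NT, Low and High scored 0, 1 and 2, a test added after the values were seen. It called 0 of the 7 genes in the edgeR fit, with an adjusted p between 0.61 (Lipg) and 0.99 (Mapk13), and 0.00632% of all genes. Of the 7, 0 had an unadjusted p under 0.05, against 1433 of all 15812 genes. With these scores the slope is set mainly by the High and NT values, which chose the genes. Nothing is therefore read from this result, and whether the rise was alike in both leukemias stays undecided.

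Markers of other cell types moved with the labels and with the leukemias. The summed level of 10 late neutrophil markers was 115 CPM (NT), 1231 CPM (Low) and 6767 CPM (High) in K3174, and 21.2 CPM (NT), 105 CPM (Low) and 1524 CPM (High) in K3117. Of the 9 that could be tested 8 rose in High against NT, and 7 were higher in K3174. Among all genes, 10.0% rose in High against NT, and 3.05% were higher and 6.32% lower in K3174. S100a9, S100a8 and Ngp had the highest levels, with 2441, 1819 and 1610 CPM in K3174 High. Mmp8 did not pass in High against NT (0.005 ± 0.27, adjusted p = 0.99, edgeR). Mmp9 and Cxcr2 rose but stayed at or below 6.85 CPM and 5.38 CPM, and Retnlg had at most 4 counts in a library. The sum of 10 basophil and mast cell markers was 126 CPM (NT), 231 CPM (Low) and 791 CPM (High) in K3174, and 42.7 CPM (NT), 92.1 CPM (Low) and 385 CPM (High) in K3117; 6 of the 8 tested rose, and all 8 were higher in K3174. Hdc, the histidine decarboxylase gene, carried the higher sum in Low, with 44.1 CPM (NT), 173 CPM (Low) and 416 CPM (High) in K3174 and 22.4 CPM (NT), 74.2 CPM (Low) and 309 CPM (High) in K3117. The other 9 together had 81.8 CPM (NT), 57.8 CPM (Low) and 375 CPM (High) in K3174 and 20.3 CPM (NT), 17.9 CPM (Low) and 75.8 CPM (High) in K3117, and the list's median log2 difference of Low against NT was -0.25. The mast cell protease gene Cpa3, named after its values were seen, was below NT in Low, with 34.3 CPM (NT), 24.5 CPM (Low) and 216 CPM (High) in K3174 and 6.74 CPM (NT), 3.68 CPM (Low) and 28.4 CPM (High) in K3117. The sum of 7 macrophage markers was highest in High but lower in K3174 (90.4 CPM) than in K3117 (149 CPM), with C1qa and C1qc at 0 in all libraries; of the 3 tested, Adgre1 rose by 1.26 (adjusted p = 4.0e-05, edgeR) and Marco by 1.50 (0.00015) in High against NT, and all 3 were lower in K3174. The part of these cell types in the levels of the 7 genes was not tested.

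**Figure D4:**
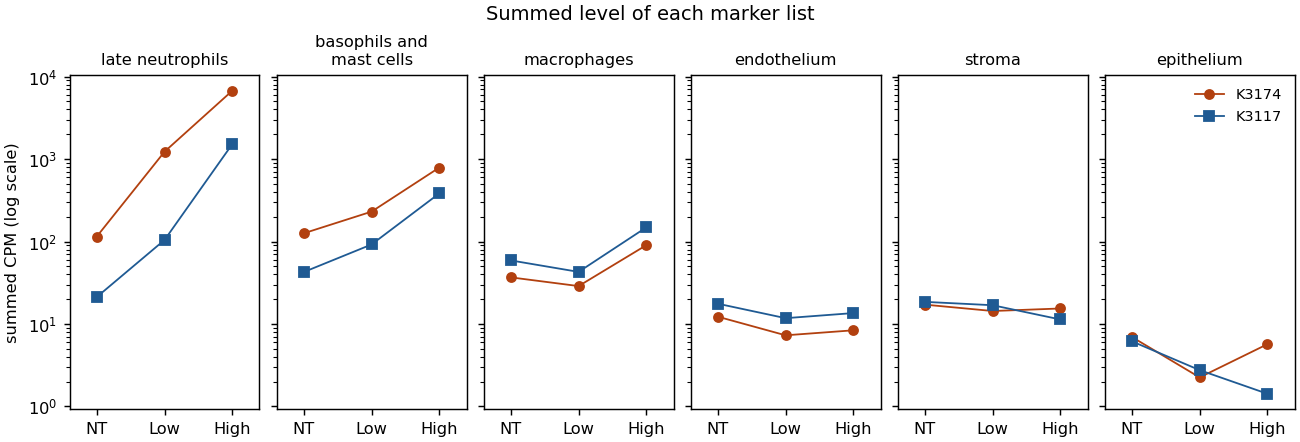
Summed CPM (log scale) of 6 marker lists at NT, Low and High, circles for K3174 and squares for K3117. The late neutrophil sum reaches 6767 CPM in K3174 High and 1524 CPM in K3117 High, while the endothelial sum stays between 7.3 and 17.6 CPM.

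Endothelium and liver are sources of Lipg and Lrg1 in the body. Among 10 endothelial markers Tek, Emcn and Robo4 had 0 counts in every library, and the summed level was 8.38 CPM in K3174 High and 13.6 CPM in K3117 High, against 12.3 CPM in K3174 NT and 17.6 CPM in K3117 NT. Most of that sum was Egfl7, with 3.13 CPM in K3174 High and 4.31 CPM in K3117 High, against 6.35 CPM in K3174 NT and 8.12 CPM in K3117 NT, and Vwf, with 4.38 CPM in K3174 High and 7.34 CPM in K3117 High, against 1.88 CPM in K3174 NT and 6.37 CPM in K3117 NT. Egfl7 fell in High against NT (adjusted p = 0.0086, edgeR), and Vwf did not pass (0.16). The sum of 5 hepatocyte markers was 0 in all K3174 libraries and at most 0.241 CPM in K3117. Stromal markers summed to between 11.3 and 18.6 CPM, nearly all of it Pdgfrb, with Col1a2, Col3a1, Lum and Cxcl12 at 0 in every library. Epithelial markers summed to between 1.42 and 6.96 CPM, erythroid markers to between 1.41 and 5.78 CPM, and markers of T and B cells to between 0.210 and 0.601 CPM.

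Of 29 relatives of the 7 genes 12 could be tested, of which 3 rose and 2 fell in High against NT, where 10.0% of all genes rose and 7.32% fell. Of the other olfactomedin-domain genes, 5 of 9 could be tested and Olfm4 alone rose, by a log2 fold of 4.79 ± 0.41 in High against NT (adjusted p = 1.4e-05). Olfm4, a neutrophil granule gene, had 293 CPM in High and 17.2 CPM in NT of K3174, and 41.1 CPM in High and 0.752 CPM in NT of K3117. Among the lipases related to Lipg, Lpl (lipoprotein lipase) rose by 2.01 ± 0.16 (9.3e-06) with 24.0 CPM in K3174 High and 71.5 CPM in K3117 High, against 6.13 CPM in K3174 NT and 17.1 CPM in K3117 NT, and was lower in K3174 than in K3117 (-1.42 ± 0.13, 3.4e-05). Liph fell by 1.88 ± 0.57 (0.042) at 0.489 CPM or less in High, and this call was lost under DESeq2 (0.13), without K3174 NT (0.14), without K3174 High (0.21), without K3174 Low (0.065) and without K3117 Low (0.078).

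The other p38 kinases did not share the pattern of Mapk13. Mapk14 (p38 alpha) was the most abundant, between 290 and 371 CPM in all 6 libraries, with a log2 fold of 0.20 ± 0.11 in High against NT that did not pass (adjusted p = 0.29). Mapk11 (p38 beta) had 0 counts in both High libraries, against 31 counts in K3174 NT and 15 counts in K3117 NT, and passed as lower (adjusted p = 0.0023, edgeR); against the floor of 3 counts High was at least 13.4-fold lower in K3174 and at least 3.38-fold lower in K3117. Mapk12 (p38 gamma) had at most 3 counts in a library. Prom2, the other prominin, had at most 2. Of the other aldo-keto reductases of subfamily 1C, Akr1c13 rose by 0.86 ± 0.19 (0.0093), which was lost without K3174 High (0.28), Akr1c12 had 0.53 ± 0.23 (0.16), and the remaining 6 had at most 1 count in a library.

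Genes near the 7 were counted to see whether the rise extended along the chromosome. Within 100 kb lie 67 annotated genes, of which 28 could be tested; 9 rose and 0 fell in High against NT, where 10.0% of all genes rose and 7.32% fell. Near Mapk13, both outer neighbours rose while the inner ones did not pass. Slc26a8, an anion transporter gene 79064 bp away, had 4.58 CPM in K3174 High and 2.22 CPM in K3117 High, against 0.175 CPM in K3174 NT and 0.210 CPM in K3117 NT (log2 fold 3.98 ± 0.43, adjusted p = 7.0e-05 by edgeR). It also rose in Low against NT (2.83 ± 0.45, 0.0054). Pnpla1, a transacylase gene of ceramide synthesis 78178 bp away on the other side, had 2.89 CPM in K3174 High and 2.49 CPM in K3117 High, against 0.0438 CPM in K3174 NT and 0.0601 CPM in K3117 NT, which are 1 and 2 counts (5.52 ± 0.57, 5.0e-05). Between them, Mapk14 and Brpf3, at 20891 bp and 20857 bp from Mapk13, had log2 folds of 0.20 ± 0.11 (0.29) and 0.07 ± 0.15 (0.82).

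**Figure D5:**
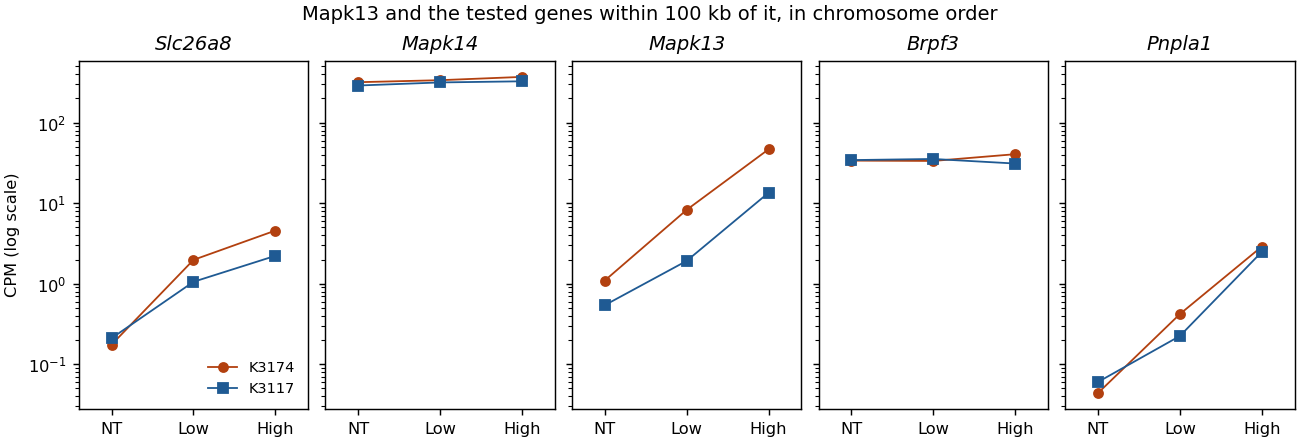
CPM (log scale) at NT, Low and High of Mapk13 and the 4 tested genes within 100 kb of it, in chromosome order, with circles for K3174 and squares for K3117. Slc26a8, Mapk13 and Pnpla1 climb with the label, while Mapk14 stays between 290 and 371 CPM and Brpf3 between 31.1 and 40.7 CPM.

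The other 7 neighbours that rose lay near 5 of the remaining genes. Near Prom1, Cd38 rose by 1.60 ± 0.19 (adjusted p = 0.00013, edgeR) and Tapt1 by 0.59 ± 0.13 (0.0087; 0.12 without K3174 High). Near Ankrd22, Stambpl1 rose by 1.07 ± 0.16 (0.00080) and Acta2 by 1.36 ± 0.39 (0.033), a call lost for Acta2 under DESeq2 (0.099) and without K3117 High (0.30), K3117 NT (0.17) or K3117 Low (0.052). Near Lrg1, Plin5 rose by 1.96 ± 0.58 (0.037) at 1.04 CPM or less, which was lost under DESeq2 (0.14) and without K3174 NT (0.26), K3174 High (0.12), K3117 High (0.058) or K3174 Low (0.052), and Sema6b, the nearest gene at 1084 bp, had -0.50 ± 0.16 (0.057). Near Lipg, Dym rose by 0.50 ± 0.12 (0.014; 0.25 without K3117 High). Akr1c13 is the neighbour of Akr1c18 that rose, and of the 3 tested genes near Olfml2b none passed, Atf6 having -0.08 ± 0.12 (0.72).

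The pathways in which the 7 genes act were followed through lists of other genes. Of 18 tested genes of the p38 cascade 4 rose and 1 fell in High against NT, against 10.0% and 7.32% of all genes: Map3k5 (a stress-activated kinase upstream of p38) by 1.27 ± 0.15 (adjusted p = 0.00014, edgeR), Dusp1 (a phosphatase that switches p38 off) by 0.93 ± 0.18 (0.0035), Atf2 by 0.45 ± 0.12 (0.026) and Mapkapk2 by 0.51 ± 0.15 (0.039), with Mapk11 lower. The list's median log2 fold was 0.14, with Mapk11 fitted or at its bound, and that of all genes -0.01. Atf2 did not pass without K3117 High (0.15), K3174 High (0.19) or K3174 NT (0.081), with library sizes alone (0.051) or with upper quartile scaling (0.069), nor Mapkapk2 without K3117 High (0.36) or K3117 NT (0.19) or with upper quartile scaling (0.067). In Low against NT 0 of the 18 rose and Mapk11 alone fell (0.037), which was lost without K3174 Low (0.92), K3174 NT (0.44) or K3117 Low (0.092).

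Of 15 tested genes of lipoprotein handling, 3 rose and 1 fell in High against NT, where 10.0% of all genes rose and 7.32% fell. The list's median log2 fold was 0.20. The cholesterol exporters Abcg1 and Abca1 rose by 1.06 ± 0.17 (adjusted p = 0.0012, edgeR) and 0.96 ± 0.21 (0.0074), and Scarb1, the receptor for high-density lipoprotein, by 0.60 ± 0.13 (0.0087). Without K3117 High, Abca1 (0.13) and Scarb1 (0.15) did not pass. Vldlr, a receptor for triglyceride-rich lipoproteins, fell to 0.976 CPM in K3174 High and 1.65 CPM in K3117 High, against 7.97 CPM in K3174 NT and 10.6 CPM in K3117 NT (-2.86 ± 0.32, 7.9e-05), and was the only one of the list past the threshold in Low against NT (-1.47 ± 0.28, 0.015; 0.34 without K3174 Low).

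Of 19 tested genes for TGF-beta and BMP receptors and their signal, 4 rose and 0 fell in High against NT. Among all genes, 10.0% rose and 7.32% fell. The list's median log2 fold was 0.25, and 0 passed in Low against NT. The BMP receptor gene Bmpr1a rose most, by 2.48 ± 0.24 (adjusted p = 2.9e-05, edgeR), with 16.9 CPM in K3174 High and 8.18 CPM in K3117 High, against 3.68 CPM in K3174 NT and 1.14 CPM in K3117 NT. Bmpr2 rose by 0.87 ± 0.15 (0.0016), the inhibitor gene Smad7 by 0.94 ± 0.21 (0.0077) and Tgfbr2 by 0.53 ± 0.14 (0.021). Smad7 did not pass without K3174 High (0.15), nor Tgfbr2 without K3117 High (0.12) or K3174 High (0.21). Eng, which encodes the endoglin through which LRG1 acts, had 2.96 CPM in K3174 High and 5.11 CPM in K3117 High, against 9.10 CPM in K3174 NT and 4.63 CPM in K3117 NT, and did not pass (-0.76 ± 0.35, 0.17).

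Lrg1 is also an acute phase gene induced through interleukin 6 and STAT3. Of 13 other tested genes of that response 7 rose and 0 fell in High against NT, where 10.0% of all genes rose and 7.32% fell. The list's median log2 fold was 0.57. Saa3, a serum amyloid gene, rose by 2.23 ± 0.16 (adjusted p = 4.5e-06, edgeR), the transcription factor gene Cebpd by 1.28 ± 0.13 (4.4e-05) and the prostaglandin synthase gene Ptges by 1.64 ± 0.20 (0.00015). The others were Hp, Socs3, Cebpb and Jak1, of which Jak1 did not pass without K3117 High (0.066). Cebpd (0.72 ± 0.13, 0.011) and Hp (0.94 ± 0.20, 0.024) rose in Low against NT as well, but not without K3174 Low (0.081 for Cebpd and 0.068 for Hp), nor Cebpd without K3117 Low (0.12). Saa3 was lower in K3174 (-1.18 ± 0.13, 0.00013).

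Prom1 was set beside 11 tested progenitor surface genes, of which 2 rose and 5 fell in High against NT. Among all genes, 10.0% rose and 7.32% fell. The list's median log2 fold was -0.40. Kit rose by 0.68 ± 0.11 (adjusted p = 0.0014, edgeR) and Cd44 by 0.72 ± 0.14 (0.0031; 0.091 without K3117 High). Itga6 (-1.22 ± 0.17, 0.00037), Cd24a (-0.76 ± 0.11, 0.00074) and Cd34 (-0.92 ± 0.18, 0.0045) fell, as did Cd48 and Ly6a. Cd48 did not pass without K3117 High (0.080) or K3174 High (0.13), nor Ly6a under DESeq2 (0.085) or without K3174 NT (0.14), K3117 High (0.066) or K3174 High (0.052). Cd34 had 121 CPM in K3174 High and 112 CPM in K3117 High, against 316 CPM in K3174 NT and 151 CPM in K3117 NT. In Low against NT Kit rose (0.73 ± 0.11, 0.0045), and Ly6a (0.012) and Cd9 (0.015) fell; without K3174 Low none of the 3 passed (0.055 for Kit, 0.21 for Ly6a and 0.37 for Cd9). These calls use leukemia as a block: of the 39 list and neighbour genes that passed in High against NT, 32 did not pass without it, and no gene passed in Low against NT (950 had an unadjusted p under 0.05).

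The genes most like each of the 7 were taken as the 3 with the smallest root mean square difference in log2 CPM over the 6 libraries, each gene centred on its own mean, among 12598 genes. This measure includes the High and NT values that chose the genes, so it favours other genes with large rises. The matches are therefore description only. Closest of all were Prom1 and Ltb4r1, a leukotriene B4 receptor gene, at 0.12 on the log2 scale; Ltb4r1 had 120 CPM in K3174 High and 53.6 CPM in K3117 High, against 9.06 CPM in K3174 NT and 1.98 CPM in K3117 NT. Mapk13 was nearest to Lcn2 (lipocalin 2, a neutrophil granule gene) at 0.15, then to Slco4c1 (0.22) and the neutrophil surface gene Cd177 (0.26). Lipg was nearest to the acyltransferase gene Mogat2 (0.20), 4930438A08Rik (0.20) and Clec4b2 (0.45). Olfml2b was nearest to Pnpla1 (0.24), the neighbour of Mapk13, then to the complement receptor gene C5ar1 (0.35) and Slc6a12 (0.37).

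Prom1 was next nearest to Nlrp12 (0.20) and Peli2 (0.30), and Nlrp12 was also the nearest to Lrg1 (0.45), before Lcn2 (0.46) and Slco4c1 (0.54). Ankrd22 and Akr1c18 had looser matches: Chil1 (0.48), Lcn2 (0.63) and Stfa2l1 (0.77) for Ankrd22, and Cd177 (0.57), Prg3 (0.63) and Ifitm6 (0.65) for Akr1c18. Lcn2 thus appears for 3 of the 7 genes, and how often it stands near other genes with large rises was not counted. Among the 7 themselves the closest pair was Lrg1 and Mapk13 (0.49) and Lipg and Olfml2b stood 1.23 apart.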

How the data were processed

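Gene-level read counts for 6 RNA-seq libraries (paired reads of 150 bases) were taken as the authors deposited them, as whole-number counts per mouse Ensembl gene. The submitters' processing notes name STAR, kallisto, STAR-Fusion, DESeq2 and the mm10 build; which of them made the counts, and with what strand setting, is not given in the sources used here. Symbols were found for 99.5% of IDs without their version, positions and exons came from GENCODE M21 (GRCm38), and 23286 IDs had no count. No 2 libraries agreed within sampling noise.

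The 7 genes and the lists were chosen with earlier results of these data known, and the choice used High against NT. Counts were filtered (edgeR filterByExpr), scaled (TMM factors 0.973 to 1.04) and fitted with edgeR 4.0.16 in R 4.3.3 (quasi-likelihood, leukemia and label as terms, Benjamini-Hochberg over 15812 genes, common biological variation 12.0%), after a test on simulated data. Leukemia was a block because the K number in the titles pairs the libraries, whose same-numbered deviations correlated at 0.57 (NT and Low), 0.44 (NT and High) and 0.64 (Low and High). CPM use TMM-scaled library sizes; a floor is 3 counts and intervals are exact at 95%. Besides the 7 genes, the text names list relatives with counts, pathway list genes, neighbours within 100 kb and the 3 most like genes with a mean of at least 1 CPM. For each pathway list the plan was at most 3 genes in each direction with the smallest p. All that passed in High against NT are named instead. Alternatives were RLE, unscaled and upper quartile libraries, every gene with a count, a mean of at least 5 CPM, DESeq2 1.42.0, no block, each library left out, and prior counts of 0.5 and 5.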

Additional observations from a re-analysis of the deposited data

How the results depend on the processing

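No result for the 7 genes turned direction past the threshold under the alternatives run. The calls of Lipg, Mapk13, Prom1 and Lrg1 as higher in K3174 stood in the 12 alternatives with a leukemia term, and that of Akr1c18 in the 11 that kept it. Ankrd22 also passed in the 11 that kept it. It is not counted, since with 0 counts in NT it could pass the filter on low counts through High. Without the replicate block, that is with the leukemias not paired, genes past the threshold numbered 493 in place of 2741 for High against NT, 0 in place of 528 for Low against NT (950 at an unadjusted p under 0.05) and 0 in place of 56 for Low against the midpoint (269 unadjusted). With every gene that had a count they numbered 1071 for Low against NT, 304 for the midpoint and 275 in place of 1 for the slope. With a mean of at least 5 CPM, which left out Ankrd22 and Akr1c18, they numbered 343 for Low against NT, 17 for the midpoint and 849 in place of 1481 between the leukemias. The midpoint count was 37 with library sizes alone and 108 with DESeq2, and DESeq2 gave 37 for the slope. Leaving out 1 library gave 1927 to 4394 for High against NT, 144 to 1483 for Low against NT, 8 to 439 for the midpoint, 829 to 2642 between the leukemias and 0 to 51 for the slope, the 0 without K3117 NT (634 unadjusted). Calls in High against NT were higher in 57.8% of cases, and in 43.9% with upper quartile scaling. With every gene that had a count, Lrg1 (0.0084) and Akr1c18 (0.0020) passed against the midpoint. The High against NT value of one of the 7 genes moved by more than the SD between leukemias in 2 such refits and not in 45, and with 1 library left out in 8 and not in 34, without a change of sign. The log2 CPM step from NT to Low moved by more than that SD in 8 of the values with a prior count of 0.5 or 5 and not in 20. The position of Low for Akr1c18, K3174 minus K3117, was 0.63 percentage points, and -1.09 with a prior count of 0.5, 2.27 with 5 and -1.93 with none, chosen after seeing the data. The cause of these shifts was not tested. With 1 library per label and leukemia, depth limits Ankrd22 and Akr1c18 most.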
